A study of Homo sapiens with 16 samples.

Results

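The genes described here are ATF4 and 9 of its well-known target genes: ASNS, TRIB3, DDIT3, CHAC1, SESN2, PSAT1, PHGDH, SLC7A5 and SLC3A2. They were found on the arrays by the gene symbol in the array annotation, which gave 13 of 58201 probes, 1 probe for 8 of the genes, 2 for CHAC1 and 3 for ASNS. All 13 passed the filter on dim probes, as did 34599 probes in all, and each gene is described by its brightest probe, so that 10 genes stand among 26368. Every member's brightest probe was well above background on all 16 arrays, and none of its spots was saturated. RNA was measured in 16HBE, a human bronchial epithelial line immortalised with the SV40 large T antigen, by hybridisation to one-colour Agilent microarrays, whose probes are 60 bases long. The conditions compared were 4, each with 4 arrays: 16HBE-WT and 16HBE-ex14 cells, without HGF or with HGF at 20 ng/mL for 24 h, all after 2 h of serum starvation. HGF, hepatocyte growth factor, is the ligand of the receptor tyrosine kinase MET. The 16HBE-ex14 cells were edited with CRISPR/Cas9 so that exon 14 of MET is skipped, and the edited cells are a single clone (clone F), so that genotype and clone cannot be told apart.

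ATF4 is the main transcription factor of the integrated stress response. When amino acids run short, when unfolded protein builds up in the endoplasmic reticulum or when other stresses act, kinases phosphorylate the initiation factor eIF2alpha, general translation falls and the ATF4 messenger is translated better. ATF4 then raises genes of amino acid synthesis and uptake, together with feedback and stress regulators. Much of its control is translational, so the ATF4 messenger itself need not follow ATF4 protein, and no protein was measured on these arrays.

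ATF4 binds with C/EBP partners to a composite element whose core can be written TGATGNAA. This core was searched on either strand from 250 bases before to 50 bases after each RefSeq start (GRCh38.p14), and 3.62% of 35116 promoters, 1270 in number, held it. All 10 genes had a promoter entry, and 3 of them had a match at any of their listed starts. This counts genes, some with several starts, while the 3.62% is a share of starts. ASNS had it at 1 of its 2 listed starts and CHAC1 at its only start, both before the start, and SLC3A2 had it at 1 of 3 starts, 38 bases into the transcript. The 2 upstream stretches are shown because they are the member promoters that carry the core before the start, with the core in capitals. The ASNS stretch lies on the minus strand at chr7:97872429-97872516, and the core begins at position -68. The CHAC1 stretch lies on the plus strand at chr15:40953222-40953309, and the core is read on the opposite strand from position -209 relative to the start.
ASNS: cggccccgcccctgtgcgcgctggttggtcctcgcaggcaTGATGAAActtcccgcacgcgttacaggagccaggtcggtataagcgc
CHAC1: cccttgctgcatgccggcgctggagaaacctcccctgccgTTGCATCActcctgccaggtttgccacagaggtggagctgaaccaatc
No match was present in this window for ATF4, TRIB3, DDIT3, SESN2, PSAT1, PHGDH or SLC7A5, which says only that these letters are not there. Among other genes of the pathway, the cytosolic aminoacyl-tRNA synthetases held the core most often of the lists examined. It was in 7 of the 10 genes with a promoter entry, again counted by gene and not by start.

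Values below are log2 intensities relative to the 75th percentile of each array. The arrays lay on 2 slides with 2 rows each, every row of a slide holding 1 array of every condition. The replicates were described as a week apart, but no array is tied to a particular week in the sources used here, and a replicate number below only gives the array's place (1 and 2 on slide 1, 3 and 4 on slide 2). Before scaling, the 75th percentile was 156 to 213 on the 16HBE-WT arrays, 140 to 191 with HGF, 211 to 241 on the 16HBE-ex14 arrays and 202 to 263 with HGF, and 49.0% to 60.3% of probes were well above background on an array. All 6 epithelial markers examined were well above background on every array, and their summed level, linear and in multiples of the 75th percentile, was 1602 to 1909 in 16HBE-WT, 1711 to 2035 in 16HBE-WT+HGF, 1518 to 1666 in 16HBE-ex14 and 1550 to 1843 in 16HBE-ex14+HGF. KRT5, a basal cell keratin, differed by -3.42 ± 0.13 (SE) log2 in 16HBE-ex14 cells averaged over HGF. It was the only epithelial marker of the 6 that was called, where 11.3% of all probes were. The median of the 6 was -0.12 log2, 2 were higher and the highest was at 0.29. Of 6 fibroblast markers, 2 were above background on all arrays and COL1A2, COL3A1 and DCN on none. Of 4 endothelial markers, VWF and CDH5 were tested and neither was called averaged over HGF, and PECAM1 and KDR were above background on no array. The summed level of the 4 was 0.40 to 0.61 in 16HBE-WT and 0.40 to 0.54 in 16HBE-ex14 cells. Of the 4 leukocyte markers on the array, 3 were above background on all arrays, and the summed level of the 4 was 0.79 to 1.29 in 16HBE-WT and 0.65 to 1.06 in 16HBE-ex14 cells. CD3E was called lower in the clone averaged over HGF (-0.75, adjusted p = 0.00875). The summed level of the 6 fibroblast markers was 0.55 to 1.04 in 16HBE-WT and 0.32 to 0.51 in 16HBE-ex14 cells, where LUM was lower. The part of these marker differences in the results below was not tested. The MET probe differed by 0.03 to 0.16 log2 in the 4 pairwise comparisons with no call, and since its place relative to exon 14 was not established, it is no check of the edit.

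The first question was how the edited clone differed from the wild-type cells. DDIT3, CHAC1 and TRIB3 were higher in 16HBE-ex14 cells, by 1.5 to 1.9 fold, both without and with HGF. PSAT1 and SESN2 were higher by 1.3 fold when averaged over HGF, under the 1.5-fold limit used here. PHGDH, the first enzyme of serine synthesis, was lower. ATF4 and ASNS were 1.1 fold higher on average and did not pass the test, nor did the subunits of the leucine transporter, SLC7A5 and SLC3A2, at 1.3 fold. In bulk RNA, a change in the share of cells that express a gene and a change in RNA per cell cannot be told apart.

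Counted by the call used throughout (limma, Benjamini-Hochberg adjusted p below 0.05 over all 34599 probes and a fold change above 1.5), 3 of the 10 genes were called without HGF, where 9.4% of all probes were called in either direction and 4.51% were called higher. The count was 3 of 10 with HGF, against 10.8% and 5.32% of all probes, and 3 of 10 averaged over HGF, against 11.3% and 5.4%. At an adjusted p below 0.05 with any fold change, 4 genes passed without HGF (18.4% of all probes), 5 with HGF (20.6%) and 6 averaged over HGF (32.6%). In the comparison averaged over HGF, 9 of the 10 genes were higher in 16HBE-ex14 cells, with a median difference of 0.38 log2, while 48.7% of the 26368 genes tested were higher and their median was -0.01. The member median was 0.43 without HGF and 0.33 with HGF. It lay between 0.28 and 0.57 under the scalings that used the array median, E1A spike-in probes or quantiles.

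**Figure D1:**
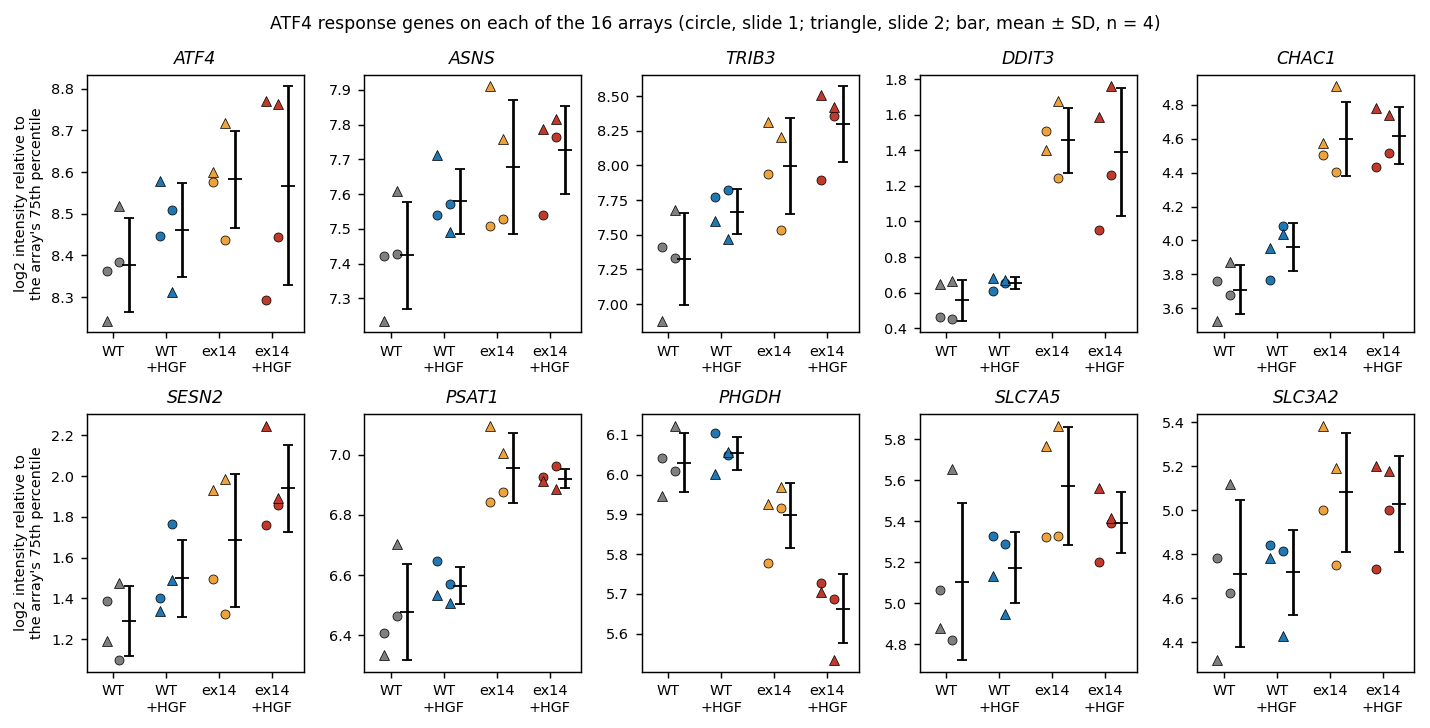
Log2 intensity relative to the array's 75th percentile (y axis) of the brightest probe of each gene in the 4 conditions (x axis), 1 point per array, circles for slide 1 and triangles for slide 2, with bars for the mean ± SD of 4 arrays. DDIT3 and CHAC1 lie higher on every 16HBE-ex14 array than on any 16HBE-WT array, and PHGDH lies lowest on the 16HBE-ex14+HGF arrays.

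DDIT3 encodes CHOP, a C/EBP-family factor that is induced when stress persists and is known for promoting cell death. Its values were 0.46, 0.45, 0.65 and 0.66 on the 16HBE-WT arrays and 0.61, 0.66, 0.68 and 0.67 with HGF. On the 16HBE-ex14 arrays they were 1.51, 1.24, 1.40 and 1.68, and with HGF 0.95, 1.26, 1.59 and 1.76. All 8 arrays of the clone lay above all 8 wild-type arrays. The difference was 0.90 ± 0.15 (SE) log2 without HGF, 1.86 fold (limma, adjusted p = 0.000738), and 0.73 ± 0.15 with HGF, 1.66 fold (limma, adjusted p = 0.00273). Averaged over HGF it was 0.69 on slide 1 and 0.94 on slide 2, and the call was kept without any single array. The DDIT3 probe covers chr12:57911200-57911526 on hg19, a longer span than its 60 bases, so that it crosses a gap in the genome alignment.

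CHAC1 is an enzyme that degrades glutathione and lies downstream of the ATF4 and CHOP factors. Its brighter probe read 3.76, 3.68, 3.53 and 3.87 in 16HBE-WT cells, and 3.77, 4.08, 3.96 and 4.04 in 16HBE-WT+HGF cells. The 16HBE-ex14 arrays read 4.50, 4.41, 4.57 and 4.91, and the 16HBE-ex14+HGF arrays 4.44, 4.52, 4.78 and 4.74. The lowest array of the clone was again above the highest wild-type array. The difference was 0.89 ± 0.13 log2 without HGF, 1.85 fold (limma, adjusted p = 0.00023), and 0.66 ± 0.13 with HGF, 1.58 fold (limma, adjusted p = 0.00189). The second, dimmer CHAC1 probe, at chr15:41247814-41247873 on hg19, did not carry this difference to the same extent: it was 0.33 ± 0.15 higher without HGF (adjusted p = 0.152) and 0.11 ± 0.15 with HGF (adjusted p = 0.681), and its groups overlapped in both. The brighter probe lies at chr15:41248631-41248690. The call of CHAC1 therefore rests on the brighter probe. With the mean of both probes the call was lost with HGF (0.38, adjusted p = 0.0575) and averaged over HGF, where the difference of 0.50 was under 1.5 fold, and under quantile normalization the difference with HGF was 0.58, just under 1.5 fold.

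TRIB3 is a pseudokinase that is induced by ATF4 and CHOP and in turn restrains them. It read 7.41, 7.33, 6.88 and 7.68 in 16HBE-WT cells and 7.94, 7.54, 8.31 and 8.20 in 16HBE-ex14 cells, and the lowest array of the clone was below the highest wild-type array. With HGF it read 7.77, 7.82, 7.60 and 7.47 in 16HBE-WT and 7.90, 8.36, 8.51 and 8.42 in 16HBE-ex14 cells, with no overlap. The difference was 0.67 ± 0.20 log2 without HGF, 1.59 fold (limma, adjusted p = 0.0271), and 0.63 ± 0.20 with HGF, 1.55 fold (limma, adjusted p = 0.0333). These are the least firm of the 3 calls. On slide 1 the difference averaged over HGF was 0.35, and on slide 2 it was 0.96. Without HGF the call was lost when 16HBE-WT replicate 2 (adjusted p = 0.0542), 16HBE-WT replicate 3 (0.52 log2), 16HBE-ex14 replicate 3 (0.57 log2) or 16HBE-ex14 replicate 4 (adjusted p = 0.0781) was left out. It was also lost when only the arrays of the compared conditions entered the fit (adjusted p = 0.0828) and with no filter on dim probes (adjusted p = 0.0549). With HGF it was lost without 16HBE-WT+HGF replicate 3 or 4 or 16HBE-ex14+HGF replicate 2, 3 or 4, at adjusted p of 0.0733 to 0.0919. Averaged over HGF, the difference of 0.65 (adjusted p = 0.00211) fell under 1.5 fold only without 16HBE-WT replicate 3 (0.58 log2).

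SESN2, sestrin 2, is a leucine-binding protein that restrains the growth kinase complex mTORC1. It ranged from 1.10 to 1.48 in 16HBE-WT cells, 1.34 to 1.77 with HGF, 1.32 to 1.99 in 16HBE-ex14 cells and 1.76 to 2.25 with HGF. The groups overlapped in both comparisons of the genotypes. Averaged over HGF, SESN2 was 0.42 ± 0.11 log2 higher in the clone (limma, adjusted p = 0.0115), with 0.20 on slide 1 and 0.64 on slide 2. Neither comparison on its own passed the adjusted p (0.111 without HGF and 0.0713 with HGF).

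**Figure D2:**
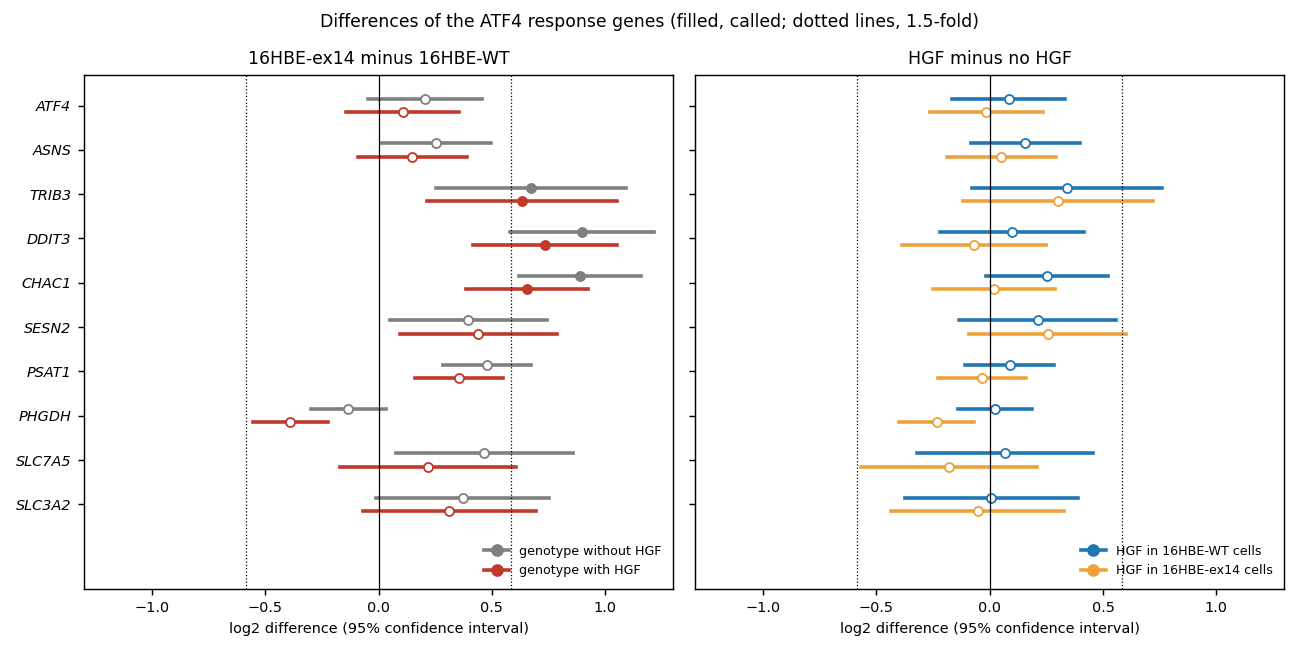
Log2 difference of each gene with its 95% confidence interval (x axis), for 16HBE-ex14 minus 16HBE-WT cells on the left and for HGF minus no HGF on the right. Filled points passed the call, and the dotted lines mark 1.5 fold. DDIT3, CHAC1 and TRIB3 are filled on the left, and no point is filled on the right.

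The enzymes of amino acid synthesis did not all differ in the same direction. PHGDH and PSAT1 catalyse the first and second steps of serine synthesis from glycolysis, and they differed in opposite directions. PSAT1 read 6.41, 6.46, 6.33 and 6.70 in 16HBE-WT, 6.65, 6.57, 6.53 and 6.51 in 16HBE-WT+HGF, 6.84, 6.88, 7.10 and 7.01 in 16HBE-ex14, and 6.92, 6.96, 6.91 and 6.89 in 16HBE-ex14+HGF cells. Every array of the clone was above every wild-type array. The difference was 0.48 ± 0.09 log2 without HGF (limma, adjusted p = 0.00205) and 0.36 ± 0.09 with HGF (adjusted p = 0.0118), which is 1.39 and 1.28 fold. PSAT1 passed the 1.5-fold limit without HGF when arrays were scaled to their median (0.61 log2) or to E1A spike-in probes (0.59 log2). Averaged over HGF it was close on the slides, 0.38 on slide 1 and 0.46 on slide 2.

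PHGDH read 6.04, 6.01, 5.95 and 6.12 in 16HBE-WT cells, 6.10, 6.05, 6.00 and 6.06 with HGF, 5.78, 5.92, 5.93 and 5.97 in 16HBE-ex14 cells and 5.73, 5.69, 5.70 and 5.53 with HGF. It was the only member lower in the clone. With HGF the groups did not overlap and the difference was -0.39 ± 0.08 log2 (limma, adjusted p = 0.00231), a 1.31-fold difference, and without HGF it was -0.13 ± 0.08 (adjusted p = 0.275) with overlapping groups. Averaged over HGF it was -0.26 ± 0.05 (adjusted p = 0.00183), -0.27 on slide 1 and -0.25 on slide 2. Without any scaling between arrays, which left the 16HBE-ex14 arrays brighter, PHGDH was 0.12 higher averaged over HGF, and with scaling to the array median all 10 members were higher without HGF, so that its direction is relative to the other transcripts of the array. ASNS, the enzyme that makes asparagine and a classic target of ATF4, ranged from 7.24 to 7.61 in 16HBE-WT, 7.49 to 7.71 in 16HBE-WT+HGF, 7.51 to 7.91 in 16HBE-ex14 and 7.54 to 7.82 in 16HBE-ex14+HGF cells. It was 0.25 ± 0.11 log2 higher in the clone without HGF (adjusted p = 0.142) and 0.15 ± 0.11 with HGF (adjusted p = 0.413), and the groups overlapped. Its other 2 probes, which lie upstream at chr7:97557455-97557565 on hg19, were dim. The first differed by 0.22 ± 0.18 log2 without HGF (adjusted p = 0.454), and the second was well above background on 9 of 16 arrays.

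SLC7A5 (LAT1) is the light chain that carries leucine and other large neutral amino acids, and SLC3A2 (CD98) is its heavy chain, which brings it to the cell surface. SLC7A5 ranged from 4.82 to 5.66 in 16HBE-WT cells, 4.95 to 5.33 with HGF, 5.33 to 5.87 in 16HBE-ex14 cells and 5.20 to 5.56 with HGF. SLC3A2 ranged from 4.32 to 5.12, 4.43 to 4.84, 4.75 to 5.39 and 4.73 to 5.20 in the same order. The conditions overlapped for both genes. Averaged over HGF, SLC7A5 was 0.34 ± 0.13 log2 higher in the clone (limma, adjusted p = 0.0543) and SLC3A2 0.34 ± 0.13 higher (adjusted p = 0.0513). SLC3A2 was 0.11 higher on slide 1 and 0.58 higher on slide 2, and SLC7A5 0.19 and 0.50 higher. Of the arrays left out in turn, only 16HBE-WT replicate 4, the highest wild-type array of SLC7A5, brought SLC7A5 past the call without HGF (0.65 log2, adjusted p = 0.0109).

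ATF4 itself read 8.36, 8.38, 8.24 and 8.52 in 16HBE-WT, 8.45, 8.51, 8.58 and 8.31 in 16HBE-WT+HGF, 8.58, 8.44, 8.60 and 8.72 in 16HBE-ex14, and 8.29, 8.44, 8.77 and 8.76 in 16HBE-ex14+HGF cells. The 16HBE-ex14+HGF arrays were spread over the range of all the others. The difference between the genotypes was 0.20 ± 0.12 log2 without HGF (limma, adjusted p = 0.268) and 0.11 ± 0.12 with HGF (adjusted p = 0.598). Averaged over HGF it was 0.16, with a 95% confidence interval of -0.02 to 0.33, whose upper end is under 1.5 fold. On slide 1 it was 0.01 and on slide 2 it was 0.30.

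As groups of arrays, 3 genes did not overlap between the genotypes without HGF (DDIT3, CHAC1 and PSAT1), where 21.4% of all probes did not overlap. With HGF, 5 did not overlap (TRIB3, DDIT3, CHAC1 and PSAT1 higher, PHGDH lower), against 23.9% of probes. Over the 8 arrays of each genotype, DDIT3, CHAC1 and PSAT1 did not overlap, against 10.8% of probes.

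The second question was whether 24 h of HGF changed these genes. These comparisons share arrays with those of the genotypes, so the 2 sets of values are not independent. In 16HBE-WT cells, where 0% of all probes were called, 0 of the 10 genes were called and 0 had an unadjusted p below 0.05 (limma), against 1243 of 26368 genes. All 10 were higher with HGF, by 0.01 to 0.34 log2 with a median of 0.09, where 61.0% of all genes were higher and their median was 0.04. That direction depended on the scaling: 4 of the 10 were higher when arrays were scaled to their median. TRIB3 had the highest upper limit, its difference being 0.34 with a 95% confidence interval of -0.08 to 0.76. No member's groups were free of overlap (2.62% of all probes were).

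In 16HBE-ex14 cells, where 2% of all probes were called, 0 of the 10 genes were called and 1 had an unadjusted p below 0.05 (limma), against 3775 of 26368 genes. The median difference of the members was -0.02, with 4 of 10 higher, and 60.4% of all genes were higher, with a median of 0.06. PHGDH differed by -0.23 ± 0.08 log2 (unadjusted p = 0.00868, adjusted p = 0.143), and its 4 arrays with HGF lay below its 4 arrays without, where 8.84% of all probes had groups that did not overlap. The values of -0.14 on slide 1 and -0.33 on slide 2 ran the same way. For TRIB3 the difference was 0.30 ± 0.20 and for SESN2 0.26 ± 0.16, with adjusted p of 0.547 and 0.534. DDIT3 differed by -0.07 ± 0.15 and CHAC1 by 0.02 ± 0.13. Averaged over the genotypes, 0 of 10 were called (1.13% of all probes were), and TRIB3 came nearest, 0.32 ± 0.14 higher (unadjusted p = 0.0358, adjusted p = 0.285).

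The difference between the HGF responses of the genotypes was tested as an interaction, and 0% of all probes and 0 of the 10 genes were called. The member values ran from -0.26 to 0.04 log2. PHGDH had the largest, -0.26 ± 0.11 (limma, unadjusted p = 0.033, adjusted p = 1.00), so that the -0.23 in the clone was not shown to differ from the 0.02 ± 0.08 in wild-type cells.

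Within conditions, the members varied together from array to array. After the mean of each condition was removed, 43 of the 45 pairs of members had a positive correlation over the 16 arrays, with a median Pearson r of 0.63. Over all pairs of tested genes 50.9% were positive, with a median of 0.01, and the median r of a member with all genes outside the 10 was between -0.04 and 0.09. The tested genes include dim ones, while every member was well above background on all 16 arrays, so the comparison is not between genes of like signal. TRIB3 and SLC3A2 had the highest r, 0.95, ASNS and SLC3A2 had 0.88, and SLC7A5 and SLC3A2 had 0.86. DDIT3 stood closest to ATF4 (0.81) and was near 0 with PSAT1 (0.02). The pairs below 0 were PHGDH with DDIT3 (-0.36) and PHGDH with ATF4 (-0.09). These arrays share slide and scaling, and the r values are a description over 16 points.

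**Figure D3:**
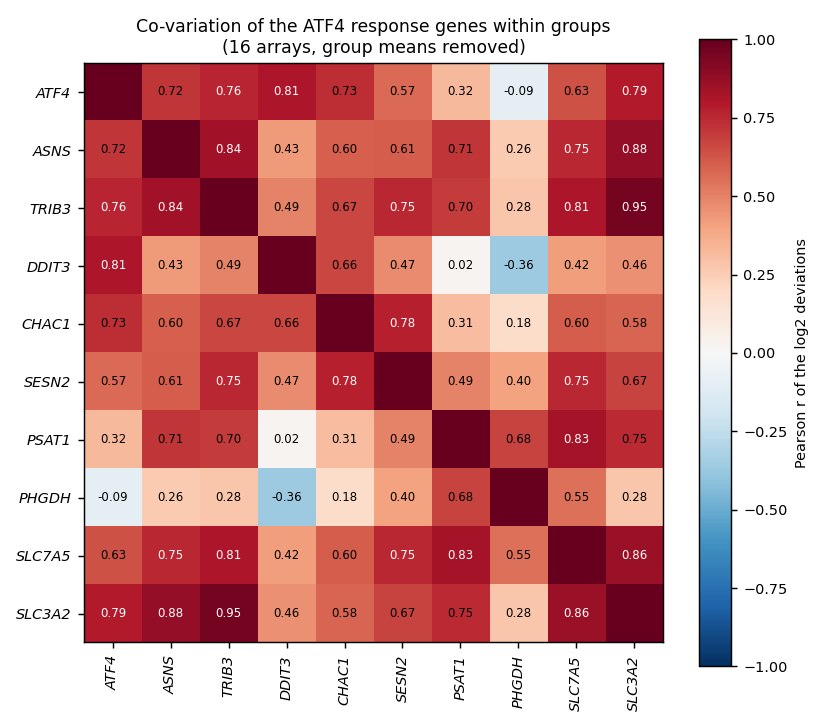
Pearson r between the members' log2 deviations from their condition means over 16 arrays, both axes listing the 10 genes and the colour running from -1 (blue) to 1 (red). Most cells are red, and the blue cells are those of PHGDH with ATF4 and with DDIT3.

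The shared movement followed the slides in the clone. Averaged over the members, the deviation from the condition mean on the 16HBE-ex14 arrays was -0.10 and -0.22 log2 on slide 1 and 0.14 and 0.18 on slide 2, and with HGF it was -0.21, -0.03, 0.15 and 0.09. In 16HBE-WT cells replicate 3 was lowest (-0.18) and replicate 4 highest (0.24), and these lie on the same slide. With slide as a block, DDIT3, CHAC1 and TRIB3 stayed called in both comparisons of the genotypes, 3 of 10 each.

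Over all 16 arrays and 26335 other genes, the gene most like ASNS was SLC25A3, the mitochondrial phosphate carrier (r = 0.97), followed by C15orf40 and HNRNPA1. Closest to TRIB3 were POLR3C and SHMT2, each at r = 0.97. SHMT2, the mitochondrial serine hydroxymethyltransferase, is itself on the list of amino acid enzymes below. Closest to ATF4 were PSMC3IP and ZNF410, each at r = 0.94. These are descriptions of 16 arrays.

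Other genes of the pathway were counted in lists by role, each gene by its brightest probe. In the list of partner factors and feedback genes, 3 of 13 were called higher in the clone averaged over HGF and none lower, with a median of 0.31 log2. Of all probes, 5.4% were called higher in that comparison and 11.3% in either direction. GDF15, a secreted stress cytokine, was 1.41 ± 0.12 log2 higher, 2.66 fold, from 5.92 ± 0.08 (SD, n = 4) in 16HBE-WT to 7.34 ± 0.21 in 16HBE-ex14 and from 5.99 ± 0.32 to 7.39 ± 0.26 with HGF. DDIT4 (REDD1), an inhibitor of mTORC1, was 0.67 ± 0.11 higher, and EIF4EBP1 (4E-BP1), a translation repressor, 0.59 ± 0.10 higher. ATF3, a further stress-induced factor, was at -0.05 ± 0.26 and was not called. NUPR1, a stress-induced chromatin protein, was the only 1 of the 13 genes called for HGF in the clone, where 2% of all probes were called. Its level was 0.59 ± 0.40 (SD, n = 4) in 16HBE-WT cells and 1.70 ± 0.39 in 16HBE-ex14 cells, and with HGF it was -0.04 ± 0.44 and -0.16 ± 0.30. HGF thus lowered it 3.63 fold in the clone (limma, adjusted p = 0.0018). In 16HBE-WT cells the difference was -0.63 log2 and was not called, where 0% of all probes were. The responses of the genotypes were not shown to differ (-1.23 ± 0.36, limma, adjusted p = 0.722), and averaged over the genotypes NUPR1 was called lower at -1.24 ± 0.18.

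Among 11 other enzymes of amino acid and one-carbon metabolism, 3 were called higher and 1 lower averaged over HGF, with a median of 0.38. The shares of all probes were 5.4% called higher and 11.3% called in either direction. ALDH1L2, a mitochondrial folate enzyme, was 1.04 ± 0.12 log2 higher and GPT2, the mitochondrial alanine aminotransferase, 0.66 ± 0.09. ALDH18A1, the first enzyme of proline synthesis from glutamate, was 0.60 ± 0.08 higher. PSPH, which completes serine synthesis after PHGDH and PSAT1, was 0.40 ± 0.05 higher (adjusted p = 4.78e-05) and under the fold limit. CTH, the enzyme that releases cysteine from cystathionine, ran the other way, at -1.24 ± 0.06, from 2.52 ± 0.02 in 16HBE-WT to 1.33 ± 0.11 in 16HBE-ex14 cells. MTHFD2, another mitochondrial folate enzyme, was at -0.13 ± 0.10 and was not called.

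Of 9 tested amino acid transporters besides the members, 1 was called averaged over HGF, where 11.3% of all probes were. It was SLC43A1 (LAT3), which also carries leucine, 1.09 ± 0.12 log2 higher. Without HGF 2 were called, both higher, against 9.4% of all probes: SLC43A1 and SLC7A1 (0.59 ± 0.12, limma, adjusted p = 0.00338). With HGF 2 were called, both higher, against 10.8% of all probes: SLC43A1 and SLC38A1 (0.62 ± 0.13, limma, adjusted p = 0.00276). SLC7A11, the cystine carrier xCT, was 0.32 ± 0.10 higher (adjusted p = 0.0222), under the fold limit. Of the 12 cytosolic aminoacyl-tRNA synthetases, which charge transfer RNAs with amino acids, 11 were higher averaged over HGF, with a median of 0.24. Of all genes tested, 48.7% were higher. In this list 0 were called, where 11.3% of all probes were. An adjusted p below 0.05 at any fold change was reached by 7 of them, all higher, against 32.6% of all probes. AARS was 0.49 ± 0.09 log2 higher and IARS 0.44 ± 0.08. The exception was YARS at -0.27 ± 0.13.

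Upstream of ATF4, 1 of the 14 eIF2alpha kinases, phosphatase subunits and eIF2B genes was called averaged over HGF, where 11.3% of all probes were. It was PPP1R15A (GADD34), the inducible phosphatase subunit that ends the response, at 0.84 ± 0.12 log2. None of the 4 kinase genes was called: EIF2AK3 (PERK) was at 0.12 ± 0.12, EIF2AK1 (HRI) at 0.06 ± 0.08, EIF2AK4 (GCN2) at 0.29 ± 0.09 and EIF2AK2 (PKR) at -0.29 ± 0.06, the latter pair with an adjusted p below 0.05. That limit, at any fold change, was passed by 32.6% of all probes averaged over HGF. Of the 10 other sestrins and mTORC1 amino acid sensors, 1 was called higher and 2 lower averaged over HGF, where 11.3% of all probes were called. SESN1 was called lower at -1.29 ± 0.14, in contrast to SESN2, and NPRL3, a subunit of the GATOR1 complex, was called higher at 0.71 ± 0.09. RRAGD, a Rag GTPase, was also called lower, at -0.87 ± 0.21, but this average joins unlike values. Without HGF the difference was -1.45 ± 0.30 (limma, adjusted p = 0.00352), from -3.18 ± 0.17 (SD) in wild-type cells to -4.63 ± 0.59 in the clone. With HGF the levels were -3.41 ± 0.25 and -3.69 ± 0.62, and RRAGD was not called. The probe was dim, and its arrays were widely spread in the clone.

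The neighbouring arms of the unfolded protein response, which run through ATF6 and XBP1 and raise chaperones of the endoplasmic reticulum, were close to the ATF4 members in the comparison averaged over HGF, with a median of 0.38 log2 and 4 of 15 called, where 11.3% of all probes were called. All 15 genes were higher in the clone in each comparison of the genotypes. Without HGF 2 were called (median 0.23), against 9.4% of all probes, and with HGF 7 were called (median 0.62), against 10.8% of all probes. HERPUD1, a factor of protein degradation at the endoplasmic reticulum, was 0.79 ± 0.18 higher without HGF and 0.96 ± 0.18 with HGF. It was the only 1 of the 15 genes whose promoter held the TGATGNAA core. ERN1 was 0.63 ± 0.15 higher without HGF and 1.12 ± 0.15 with HGF, and was called in both. With HGF in 16HBE-ex14 cells all 15 were higher, with a median of 0.37, where 60.4% of all genes were higher and their median was 0.06. Of the 15, 2 were called, where 2% of all probes were: ERN1 (IRE1, 0.76 ± 0.15, limma, adjusted p = 0.0158) and EDEM1 (0.67 ± 0.13, adjusted p = 0.0138). In 16HBE-WT cells 10 of the 15 were higher with HGF, with a median of 0.05, where 61.0% of all genes were higher and their median was 0.04. In that comparison 0 of the 15 and 0% of all probes were called. The difference between the 2 HGF responses had a median of 0.42 in this list and of -0.11 among the ATF4 members. No gene of either was called in that test, where 0% of all probes were called. DNAJC3, an inhibitor of the eIF2alpha kinases that is itself induced by the unfolded protein response, was called higher with HGF in the clone at 0.59 ± 0.11 (adjusted p = 0.0113).

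**Figure D4:**
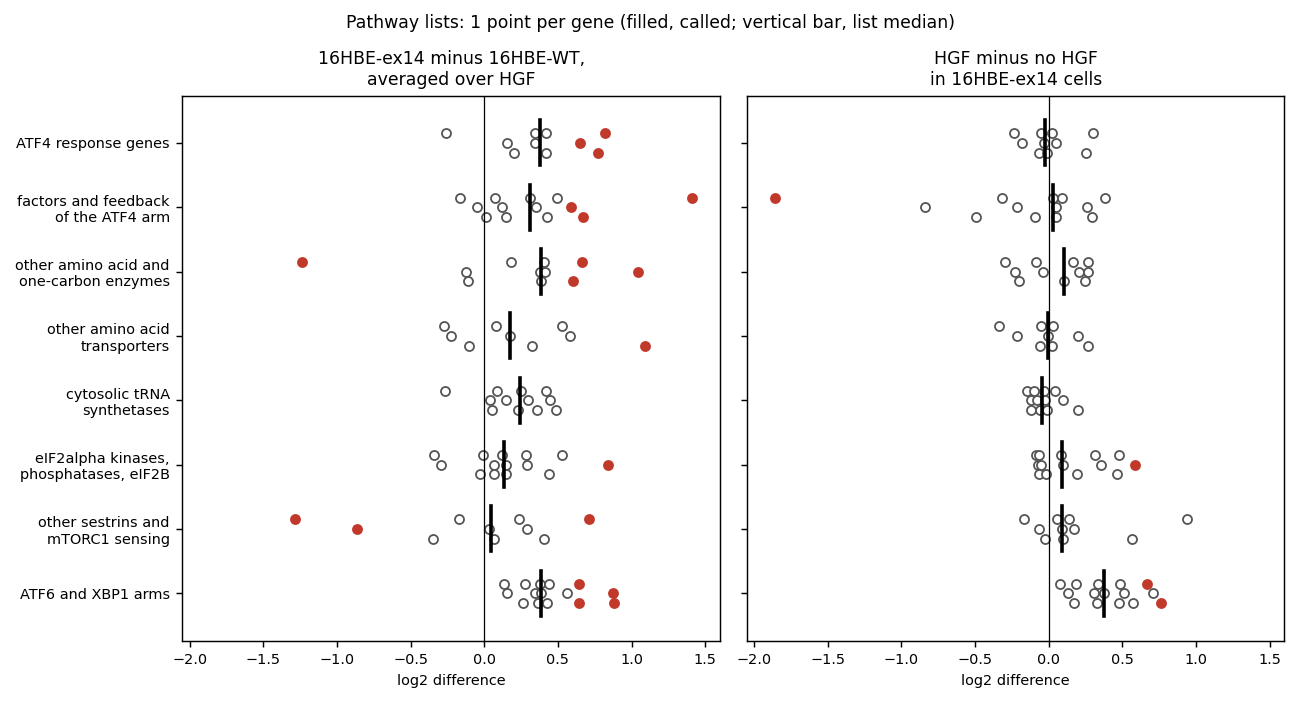
Log2 difference (x axis) of every tested gene of the lists (y axis), 1 point per gene, for 16HBE-ex14 minus 16HBE-WT cells averaged over HGF on the left and for HGF minus no HGF in 16HBE-ex14 cells on the right. Filled points passed the call and vertical bars are list medians. On the right the ATF4 members centre on -0.02 and the ATF6 and XBP1 arms on 0.37.

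Each member was also set beside its nearest tested genes, up to 25 on either side in map order. DDIT3 (0.82) stood above all but 3 of its 50 neighbours, whose median was 0.10, and CHAC1 (0.77) above all but 1 of 50, with a median of 0.04. TRIB3 (0.65), near the end of chromosome 20, was above all of its 34 neighbours, with a median of -0.09. SESN2 (0.42) stood above all but 2 of 50 neighbours that were mostly lower, with a median of -0.29. For ASNS (0.20) and SLC7A5 (0.34) the neighbours were also higher, with medians of 0.15 and 0.19, and 22 and 20 of 50 lay above the member. Of the neighbours of SLC7A5, 10 were called higher and 3 lower, where 5.4% of all probes were called higher and 11.3% in either direction. The counts called higher and lower were 6 and 3 for DDIT3, 5 and 2 for ASNS, 0 and 9 for SESN2 and 3 and 5 for ATF4. They were 1 and 1 for CHAC1, 3 and 0 for PSAT1, 2 and 2 for SLC3A2 and 0 and 3 for TRIB3. PHGDH (-0.26) had neighbours that were mostly lower as well, with a median of -0.11, 17 of 50 higher and 34 above the member, and 5 called lower and 1 higher. PSAT1 (0.42) stood above all but 4 of 50 (median 0.03), SLC3A2 (0.34) above all but 8 (median 0.10) and ATF4 (0.16) above all but 11 (median 0.01). Genes named from the other lists, SESN1, RRAGD, NPRL3, GPT2, AARS and HERPUD1 among them, were not set beside their neighbours. Whether their differences are shared by the region around them was not tested. Copy number was not measured here.

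**Figure D5:**
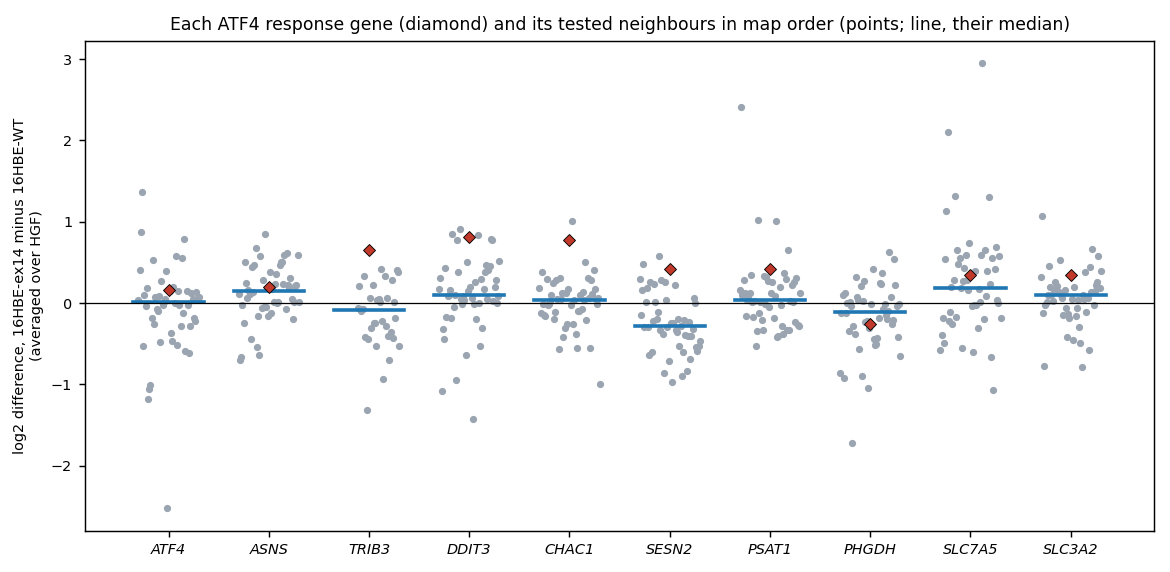
Log2 difference of 16HBE-ex14 minus 16HBE-WT cells averaged over HGF (y axis) for each member (diamond) and its tested neighbours in map order (points), with a line at the neighbours' median, the members being set out on the x axis. TRIB3, DDIT3 and CHAC1 stand above most or all of their neighbours, while ASNS and SLC7A5 stand within theirs.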

How the data were processed

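The deposited files hold the spot intensity of 16 one-colour Agilent arrays as the authors exported it from Feature Extraction 10.7.3.1, that is, the processed signal on a linear scale, corrected for background by that software and not scaled between arrays. The authors compared groups with limma and took a fold change above 1.5 at an adjusted p below 0.05, limits that were kept here. Groups came from the genotype and treatment given in the sample descriptions. The titles of the HGF-treated wild-type samples read YY where those of the untreated ones read WT.

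In R 4.3.3, control and outlier spots were removed and each log2 intensity was set relative to its array's 75th percentile, with repeat spots of a probe as their mean. Testing was limited to the 34599 of 58201 probes that were well above background on 4 or more of the 16 arrays. The 16 arrays were fitted together in limma 3.58.1 (condition means, empirical Bayes moderation), and 7 contrasts were tested with Benjamini-Hochberg adjustment in each contrast over all probes. The fit was also run on simulated data with independent noise for every probe and array, which says nothing of deviations shared by a slide. A gene is represented by its brightest tested probe, and fold changes and SE come from the fit. Differences of levels between probes were not read. Array positions are on hg19, and exon positions of the probes were not determined; promoter sequences are RefSeq's on GRCh38.p14. Intensities carry no read depth, the precision is limited by how many arrays there are, and p values measure the spread between these 4 arrays per condition.

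The members and the gene lists were chosen with earlier results of these data known. All 10 members are named. In each other list, up to 3 called genes without overlap between groups and with the largest change were named, and the 5 genes most like ASNS, TRIB3 and ATF4 by Pearson r were taken. Further genes named from the lists (ATF3, NUPR1 at all conditions, PSPH, ALDH18A1, MTHFD2, SLC7A11, AARS, IARS, YARS, EIF2AK1 to EIF2AK4, RRAGD, LUM, CD3E, VWF, CDH5 and DNAJC3) were chosen after their values were seen.

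Alternatives were normexp background correction (offset 50), scaling to the array median, to 8 E1A spike-in probes or by quantiles, other filters, keeping outlier spots, a block for the slide or for the array row, only the compared arrays, no fold limit, the mean of a gene's probes, and leaving out each array. No scaling and the dimmer CHAC1 probe were added after seeing the data. Same-row arrays of different conditions correlated in their deviations from the condition means at 0.03 to 0.32, arrays of the same slide in different rows at 0.04 to 0.41 and arrays of different slides at -0.36 to 0.03, so the slide, and not the row, marks the shared deviation, and the replicate numbers do not pair the samples. Figures were drawn with matplotlib 3.10.9.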

Additional observations from a re-analysis of the deposited data

Results flagged for a closer look

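Each member probe was examined in each condition for an array that stood apart from the other 3, by the ratio of its gap to the range (Dixon's test at the 95% level). Of 52 such sets, 1 passed, at a ratio of 0.860, where chance gives about 1 in 20. It was SLC3A2 in 16HBE-WT+HGF cells, whose replicate 4 was lowest at 4.43 against 4.78 for the next array. No member passed the test of the difference between the HGF responses of the genotypes.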

How the results depend on the processing

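With no scaling between arrays the median of all probes shifted to 0.36 log2 between the genotypes averaged over HGF, 8 members were called without HGF, 7 with HGF and 7 averaged over HGF, where 20.5%, 23.7% and 25.7% of all probes were called, and the member medians were 0.80, 0.72 and 0.76. PHGDH averaged over HGF then reversed to 0.12. Scaling to the array median moved the median of all probes by about 0.1 log2 and the member median with HGF in 16HBE-ex14 cells to -0.18. With no fold change limit, 5 members were called with HGF and 6 averaged over HGF. Leaving out 1 array gave 2 to 4 called without HGF, 2 to 3 with HGF and 2 to 3 averaged over HGF, and 0 in the HGF comparisons. The 3 calls without HGF, 3 with HGF and 3 averaged over HGF were the same in number under the replicate block by array row, which changed no call. The dimmer CHAC1 probe gave 2 called in each comparison of the genotypes. The values of TRIB3, CHAC1 and PSAT1 that changed their call stand beside them in the text. The other alternatives kept the counts within 1.5 times. With normexp, 1535 of all probes were called averaged over HGF, against 3916. The number of arrays and the use of 1 clone limit the precision, and the causes of these shifts were not tested.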
